A study of Homo sapiens with 4 samples.

Results

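The genes *RBM14*, *RBM4*, the read-through gene *RBM14-RBM4*, *NONO*, *SFPQ*, *PSPC1*, *NEAT1* and *MALAT1* were described across the 4 RNA-seq libraries of the study. They were selected by symbol, in view of earlier results from these data, and make up 8 of the 57820 genes and 65 of the 196520 transcripts in the count table. The cells were SK-N-SH, an established human neuroblastoma cell line, and were profiled by RNA-seq. In 2 libraries the cells had been transduced with a lentivirus in which an EF1a promoter drives the lncRNA *RP5-998N21.4* (OE), and in 2 libraries with the empty lentivirus vector (vector control). The vector control libraries are titled WT, while their treatment label names the empty vector, and the treatment label was used. The genotype label of the vector control is wild type and that of OE is *RP5-998N21.4* overexpressed. Both groups carried a lentivirus by their treatment labels, and no other treatment or time point is given. The labels do not say whether the 2 libraries of a group came from separate cultures or transductions, so p-values measure the spread between these libraries, which may be technical.

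Paraspeckles are RNA-protein bodies in the nucleus that form on the long non-coding RNA *NEAT1*, whose long isoform is the scaffold. Its main partners are NONO, SFPQ and PSPC1, RNA-binding proteins of a single family that work as dimers, and RBM14 is another protein that paraspeckles need for their assembly. RBM14 also acts as a coactivator of transcription. RBM4 regulates splicing and translation, and its gene follows *RBM14* on the same strand. *RBM14-RBM4* is the annotated read-through of both genes. *MALAT1*, the neighbour of *NEAT1* on the chromosome, is a long non-coding RNA of nuclear speckles, the bodies that store splicing factors. Paraspeckles are known for holding back proteins and RNAs in the nucleus and grow in several kinds of cell stress, viral infection among them.

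In hg19 the *RBM14* gene (ENSG00000239306.4) covers chr11:66384097-66397405, *RBM4* (ENSG00000173933.15) covers chr11:66406138-66435845 and *RBM14-RBM4* (ENSG00000248643.5) covers chr11:66384097-66413940, with each of the 3 on the plus strand. The RefSeq promoter windows of *RBM14* and *RBM14-RBM4* hold the same sequence. The transcripts of this locus differ in their exon junctions, and some also in exons or stretches of exon that other transcripts lack. Each sequence below spans the first junction of a transcript on the plus strand of chromosome 11, with the last 15 bases of the upstream exon in lower case and the first 15 bases of the downstream exon in capitals. The first 4 show how *RBM14*, *RBM14-RBM4* and *RBM4* share exon ends, and the last 2 belong to the *RBM14* transcripts that differed most between the groups.
RBM14 ENST00000310137.4: gtgacgtggtgaaagACTACGCGTTTGTTC
RBM14-RBM4 ENST00000421355.1: gtgacgtggtgaaagGCTCTTGTCAGGATG
RBM14-RBM4 ENST00000511114.1: gtgacgtggtgaaagGTAATTGGCGTCCGT
RBM4 ENST00000483858.1: ctggtttctgtgcggGCTCTTGTCAGGATG
RBM14 ENST00000460762.1: gtgctcaagcggaagGTTATACAAGTCCAC
RBM14 ENST00000461478.1: gtgctcaagcggaagACTACGCGTTTGTTC
The main *RBM14* transcript and both read-through transcripts leave the same first exon, which ends at position 66384528. The *RBM14* transcript continues at 66391685 and ENST00000421355.1 at 66407171, the same exon start that the *RBM4* transcript ENST00000483858.1 enters from its own first exon. ENST00000460762.1 and ENST00000461478.1 leave a later exon end at 66385021 and enter exons that start at 66385967 and 66391685. For ENST00000310137.4 and ENST00000483858.1 the coordinates come from a later version of the transcript than the table lists. A read that lies within a stretch of exon shared by *RBM14-RBM4* and *RBM14* or *RBM4* cannot tell these genes apart.

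Total counts per library ranged from 23785164 to 28307591. The overexpressed gene *RP5-998N21.4* went from 32 and 33 counts with the empty vector to 2407 and 2808 in OE. Its log2 fold change by edgeR's quasi-likelihood test was 6.11, at a standard error of 0.108 and a Benjamini-Hochberg adjusted p of 0.0109. Its size is uncertain, because the gene ENSG00000233029.3 is 99.2% identical over 3543 aligned bases and can share its reads. This copy had 0 and 4 counts with the empty vector, against 4515 and 5365 in OE, more than *RP5-998N21.4* itself, so a fold over both genes would be larger. Of the 7 adrenergic neuroblastoma markers, 6 were above 1 CPM (counts scaled to the normalized library size) and *TH* had 0 counts. Their summed level was 360 to 430 CPM in the vector control and 640 to 673 CPM in OE. The 5 mesenchymal markers were above 1 CPM and summed to 1757 to 1770 CPM in the vector control and 1345 to 2302 CPM in OE. They did not move together. *VIM* was at 348 and 350 CPM with the empty vector, against 1254 and 376 CPM in OE (log2 fold change 1.22), *FN1* overlapped between the groups (-0.04), and *CD44*, *SNAI2* and *PRRX1* were lower in both OE libraries (-0.71, -0.68 and -0.64). Among 7 markers for other tissues, 0 exceeded 1 CPM on average in either group, with sums from 0.717 to 2.04 CPM per library. The part of these marker differences in the results below was not tested.

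*NEAT1* was higher in both OE libraries, *RBM14* and *NONO* were lower in both, and the other tested genes overlapped between the groups. Of the 8 genes, 7 passed edgeR's filter on low counts, which *RBM14-RBM4* did not. The study calls a gene when its adjusted p is under 0.01 and its log2 fold change is beyond 0.5 in either direction. The study set them for DESeq2, which is an alternative here. By these thresholds edgeR called 0 of the 7, against a background of 0 of the 20528 genes tested (0%). At an unadjusted p under 0.05, 1 of the 7 was higher, where 10.1% of all tested genes were, and 0 were lower, where 10.7% were. At an adjusted p under 0.05, 0 of the 7 passed, against 0.594% of all genes. DESeq2 called 1 of the 7, *NEAT1*, as higher, where it called 4.35% of all genes higher and 4.42% lower. The 2 OE libraries lay above the 2 vector control libraries for 1 of the 7 genes and below them for 2, where 27.8% and 27.6% of all genes did so. The median log2 fold change was -0.18 over the 7 genes and 0.007 over all genes tested. In these bulk samples, fewer cells that express a gene and less of its RNA per cell cannot be told apart.

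**Figure D1:**
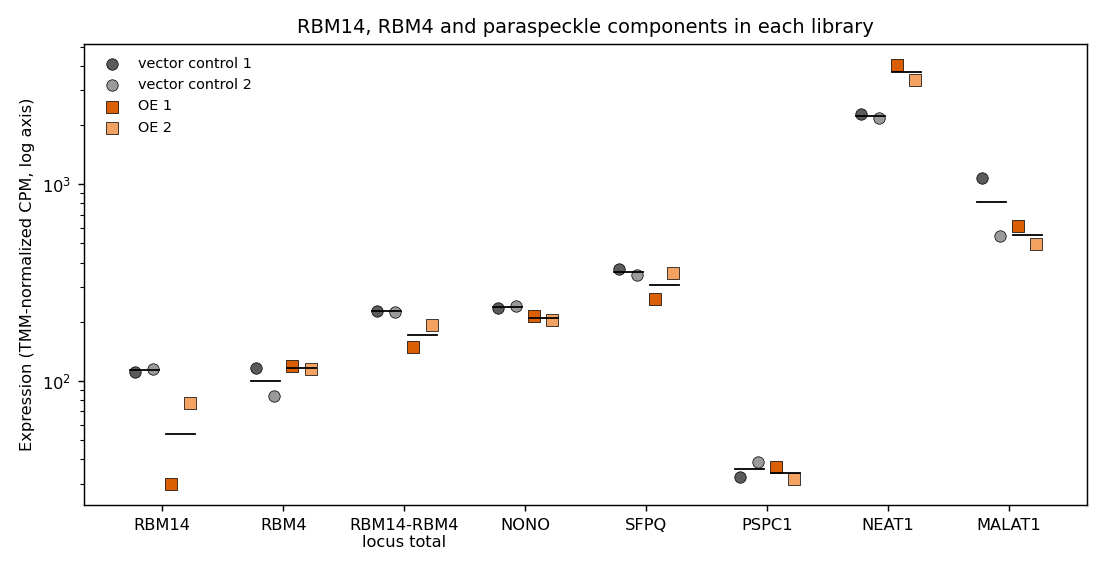
Expression of 7 genes and of the *RBM14*, *RBM4* and *RBM14-RBM4* total in each library, in TMM-normalized CPM on a log axis. Circles are vector control libraries, squares are OE libraries and lines are group means, and *NEAT1* lies above both vector control libraries in both OE libraries while *RBM14* in OE spans 29.8 to 77.2 CPM.

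*NEAT1* (ENSG00000245532.4, chr11:65190245-65213011, plus strand), the paraspeckle scaffold, had 53041 counts in vector control library 1 and 50979 in library 2, against 101283 in OE library 1 and 98140 in library 2. In normalized units these were 2278 and 2170 CPM against 4036 and 3393 CPM. Both OE libraries were above both vector control libraries, and the gap between the groups was larger than the spread within either. The mean of 3715 ± 455 CPM (SD, n = 2) in OE was 1.67 times the mean of 2224 ± 76.6 CPM (SD, n = 2) with the empty vector. The log2 fold change was 0.74 (standard error, SE, 0.0993), with an unadjusted p of 0.00222 and an adjusted p of 0.0797 by edgeR's quasi-likelihood test, which did not pass the threshold. DESeq2 gave the same log2 fold change of 0.74 with an adjusted p of 2.14e-07, which passed it. Over the alternatives the log2 fold change of *NEAT1* ranged from 0.61 to 0.86 and its adjusted p from 2.14e-07 to 0.296.

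The counts of *NEAT1* lay on a single row of the table. ENST00000501122.2, the unspliced long transcript of 22743 bases, held 53024, 50962, 101265 and 98123 counts in vector control 1 and 2 and OE 1 and 2. On this row alone edgeR gave an unadjusted p of 0.00595 and an adjusted p of 0.145 over all transcripts. The spliced ENST00000601801.1 held 15 or 16 counts in each library, and ENST00000384994.1 held 2 counts in each. The short *NEAT1* isoform shares its bases with the 5′ end of the long one, and the table has no value along the transcript, so the part of the short isoform in this difference was not tested.

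*RBM14*, the coactivator and paraspeckle assembly protein, had 2591 and 2716 counts with the empty vector, against 748 and 2234 in OE. Scaled to library size, the vector control stood at 111 and 116 CPM and OE at 29.8 and 77.2 CPM. Both OE libraries were lower, but the OE libraries were far apart. They differed 2.59-fold from each other, and among the 11458 genes that averaged 10 CPM or more, 661 (5.77%) differed by as much between these libraries. The OE mean was 53.5 ± 33.5 CPM (SD, n = 2), against 113 ± 3.05 CPM (SD, n = 2) with the empty vector. The log2 fold change was -1.08 (SE 0.504), with an unadjusted p of 0.103 and an adjusted p of 0.329 by edgeR's quasi-likelihood test. It was -0.55 without OE library 1 and -1.93 without OE library 2, and its adjusted p ranged from 0.0698 to 0.522 over the alternatives.

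*RBM4*, the splicing regulator downstream, had 2720 and 1965 counts with the empty vector, against 2993 and 3315 in OE. The levels were 117 and 83.6 CPM in the vector control and 119 and 115 CPM in OE. Vector control library 2 was low and the other 3 libraries lay together, so the OE libraries lay on both sides of vector control library 1. The log2 fold change was 0.22 (SE 0.191, adjusted p = 0.570 by edgeR), and it was -0.0035 without vector control library 2. The read-through gene *RBM14-RBM4* had 0 and 612 counts with the empty vector, against 0 and 8 in OE, where a count of 0 allows up to 3 counts. It was thus found almost entirely in the library in which *RBM4* was low. With the read-through counts added, *RBM4* came to 2720, 2577, 2993 and 3323 counts, which are 117, 110, 119 and 115 CPM. *RBM14* with the read-through counts came to 2591, 3328, 748 and 2242 counts.

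Since the genes overlap, the 3 were also summed. The total of *RBM14*, *RBM4* and *RBM14-RBM4* was 5311 and 5293 counts with the empty vector, against 3741 and 5557 in OE. In CPM it was 228 and 225 with the empty vector, against 149 and 192 in OE. The vector control libraries were nearly equal, and both OE libraries lay below them. The OE mean was 171 ± 30.4 CPM and the vector control mean 227 ± 2.00 CPM (SD, n = 2 each). The log2 fold change of the total was -0.41 (SE 0.146, unadjusted p = 0.0524, adjusted p = 0.246 by edgeR's quasi-likelihood test). Without OE library 1 it was -0.24 and without OE library 2 it was -0.61. The difference of the total thus had the direction of *RBM14* and lay on *RBM14*, since *RBM4* with the read-through stayed between 110 and 119 CPM in the 4 libraries.

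**Figure D2:**
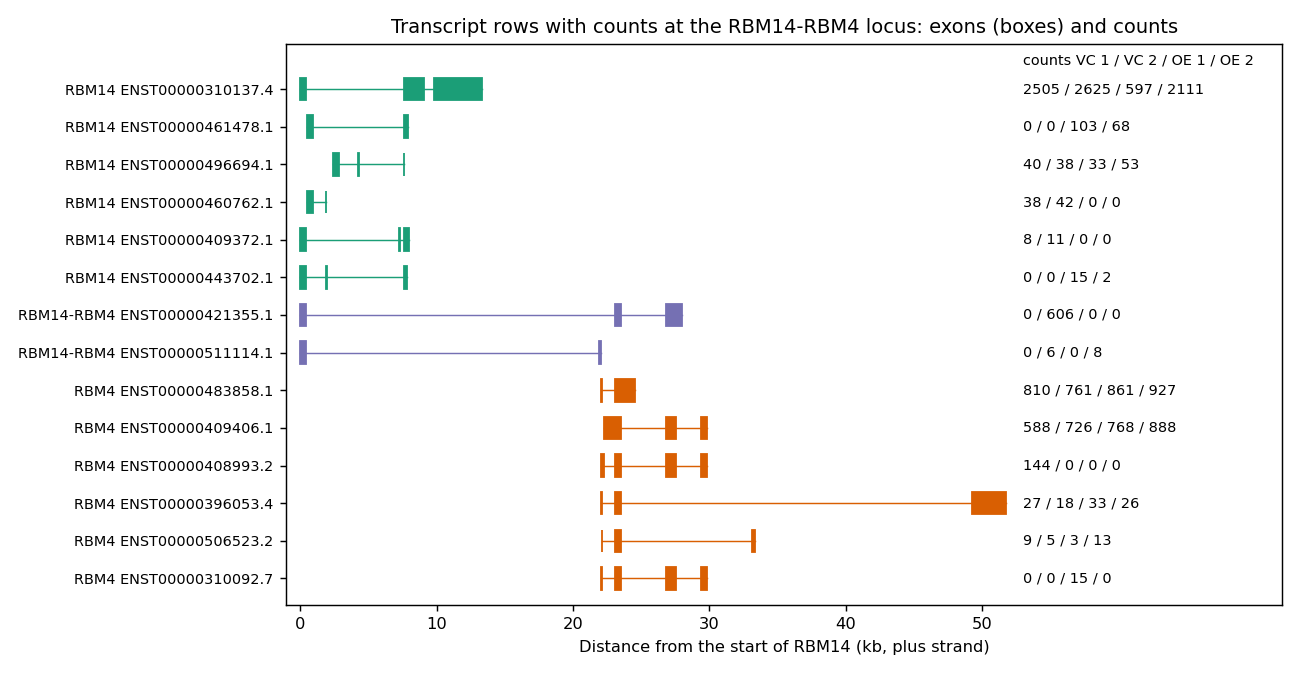
Exons (boxes) and introns (lines) of the transcripts with counts at the *RBM14*, *RBM14-RBM4* and *RBM4* locus, by distance from the start of *RBM14* in kb, with the counts of each library at the right. The read-through transcripts begin in the first exon of *RBM14*, and ENST00000421355.1 holds 606 counts in vector control library 2 and 0 in the other 3, while *RBM4* ENST00000503028.2, which has no position in the annotation used, is not drawn.

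Within *RBM14*, the protein-coding ENST00000310137.4 (3 exons, 5367 bases) held most counts, with 2505 and 2625 with the empty vector, against 597 and 2111 in OE. Low counts in OE library 1 were thus on the main transcript. ENST00000461478.1, which has no defined coding sequence, had 0 and 0 counts with the empty vector, against 103 and 68 in OE. Its OE mean was at least 25-fold the vector control mean when a count of 0 is set to 3 counts per library. The unadjusted p was 0.00742 and the adjusted p 0.156 by edgeR over all transcripts. ENST00000460762.1, which shares its first exon end with that transcript, had 38 and 42 counts with the empty vector, against 0 and 0 in OE. Its OE mean was at least 15.4-fold below the vector control mean by the same limit (unadjusted p = 0.00391, adjusted p = 0.125 by edgeR). Each of these 2 transcripts was thus seen in 1 group alone, and their sum was 38, 42, 103 and 68 counts. Each passed the filter on low counts only through the group in which it was seen, so its p-value is no support for a difference. ENST00000496694.1 held 40, 38, 33 and 53 counts, while ENST00000409372.1 held 8, 11, 0 and 0 and ENST00000443702.1 held 0, 0, 15 and 2.

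The counts of *RBM4* lay mainly on 3 transcripts. ENST00000503028.2 had 1142 and 455 counts with the empty vector, against 1313 and 1461 in OE, and so was low in the library with read-through counts. ENST00000483858.1 had 810, 761, 861 and 927 counts and ENST00000409406.1 had 588, 726, 768 and 888 counts. Both had similar counts in the 4 libraries. ENST00000408993.2 had 144 counts in vector control library 1 and 0 in the others, and the other 3 with counts, ENST00000396053.4, ENST00000506523.2 and ENST00000310092.7, had at most 33 in any library. Of the *RBM14-RBM4* counts, ENST00000421355.1, a transcript annotated for nonsense-mediated decay, had 606 in vector control library 2, which is 99% (95% Wilson interval 97.9 to 99.5%). ENST00000511114.1 had 6 counts in vector control library 2 and 8 in OE library 2.

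Of the dimer-forming proteins, *NONO* (ENSG00000147140.11, chrX:70474664-70521372, plus strand) had 5447 and 5648 counts with the empty vector, against 5369 and 5928 in OE. After scaling, the vector control was at 234 and 240 CPM and OE at 214 and 205 CPM. Both OE libraries were lower by a small margin, with means of 237 ± 4.56 CPM and 209 ± 6.38 CPM (SD, n = 2 each). The log2 fold change was -0.18 (SE 0.0632, unadjusted p = 0.0507, adjusted p = 0.242 by edgeR). DESeq2 gave an adjusted p of 0.00935 for *NONO* at a log2 fold change of -0.18, which is short of the fold threshold.

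*SFPQ* (ENSG00000116560.6, chr1:35641979-35659047, minus strand) had 8591 and 8137 counts with the empty vector, against 6573 and 10193 in OE. OE library 1, at 262 CPM, was below the other 3, which lay from 346 to 369 CPM, and the groups overlapped. Its log2 fold change was -0.22 (SE 0.167, adjusted p = 0.522 by edgeR), with -0.02 when OE library 1 was left out and -0.45 when OE library 2 was. *PSPC1* (ENSG00000121390.13, chr13:20248892-20357159, minus strand), the least abundant of the family, had 761 and 914 counts with the empty vector, against 913 and 917 in OE. Its levels were 32.7, 38.9, 36.4 and 31.7 CPM, so the groups overlapped here too. Its log2 fold change was -0.07 (SE 0.146, adjusted p = 0.821 by edgeR), and its sign turned when vector control library 2 or OE library 2 was left out. On the opposite strand, *ZMYM3* overlaps *NONO* over 333 bases and *PSPC1-AS2* overlaps *PSPC1* over 1133 bases. Reads there cannot be told apart without a stated use of strand. On the same strand, *AL590762.1* overlaps *NONO* over 318 bases and *RN7SL166P* overlaps *PSPC1* over 278 bases, where strand cannot separate them.

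The counts of *NONO* and *PSPC1* moved between transcripts from library to library while the sums moved less. For *SFPQ*, whose transcripts follow below, the sum was also low in OE library 1. For *NONO*, ENST00000490044.1, which has no defined coding sequence, held 4370 of the 5447 counts of vector control library 1, which is 80.2% (95% Wilson interval 79.1 to 81.3%), and 0 counts in the other 3 libraries. In vector control library 2 the protein-coding ENST00000276079.8 held 4007 counts, against 825 in vector control library 1 and 458 and 319 in OE. ENST00000535149.1, also protein-coding, held 239 and 1630 counts with the empty vector, against 4900 and 5596 in OE. The leading *NONO* transcript was thus a different one in each vector control library and the same in both OE libraries. ENST00000486613.2 held 11 or 13 counts in each library.

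For *SFPQ*, the protein-coding ENST00000357214.5 had 6459 and 5817 counts with the empty vector, against 5999 and 6780 in OE. Scaled to library size these were 282 and 253 CPM against 241 and 239 CPM, so both OE libraries were slightly lower and lay close together. ENST00000468598.1, which covers the 3′ end of the gene, had 1803 and 1999 counts with the empty vector, against 0 and 3023 in OE. The low total of *SFPQ* in OE library 1 was thus on this transcript. ENST00000471991.1 had 26, 18, 245 and 0 counts and ENST00000485365.1 had 303, 303, 329 and 390. For *PSPC1*, the protein-coding ENST00000338910.4 had 631 and 419 counts with the empty vector, against 811 and 784 in OE. ENST00000492741.1, annotated for nonsense-mediated decay, had 64, 483, 55 and 47 counts, highest in the library where the coding transcript was lowest. ENST00000471658.1 had 66, 12, 47 and 86 counts.

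*MALAT1* (ENSG00000251562.3, chr11:65265111-65275544, plus strand), the nuclear speckle RNA, had 25179 and 12841 counts with the empty vector, against 15410 and 14330 in OE. The levels were 1081 and 547 CPM in the vector control and 614 and 495 CPM in OE. Vector control library 1 stood apart from the other 3, and the groups overlapped. The vector control libraries differed 1.98-fold from each other, and 777 of 11458 genes (6.78%) differed by as much or more between them. The log2 fold change was -0.55 (SE 0.377, adjusted p = 0.477 by edgeR), and it was 0.02 without vector control library 1. That library's excess was on ENST00000534336.1, the single-exon transcript of 10434 bases, which had 13529 and 1718 counts with the empty vector, against 2444 and 0 in OE. ENST00000544868.1 was nearly the same in the 4 libraries, at 11650, 11123, 12966 and 14330 counts. In CPM of the transcript table it stood at 509, 483, 522 and 504. *TALAM1* lies on the opposite strand of *MALAT1*, and without a stated use of strand reads of the pair cannot be told apart.

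**Figure D3:**
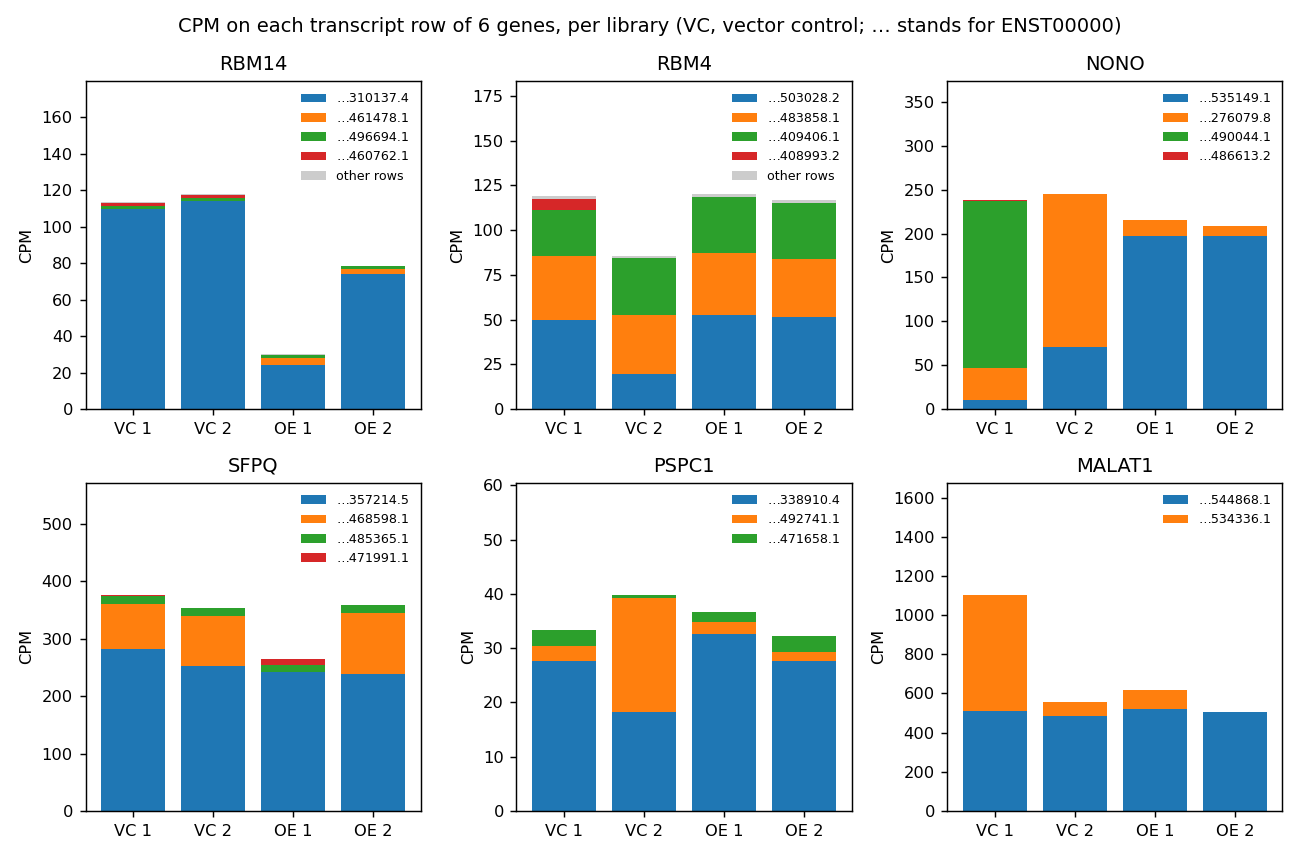
CPM of the transcripts of *RBM14*, *RBM4*, *NONO*, *SFPQ*, *PSPC1* and *MALAT1*, stacked per library (VC, vector control). For *RBM14* and *RBM4* the transcripts with the fewest counts are pooled. *NONO* has another leading transcript in each vector control library, and *MALAT1* ENST00000544868.1 stays between 483 and 522 CPM while the excess of vector control library 1 is on ENST00000534336.1.

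Of the 65 transcripts of the 8 genes, 31 had counts and 22 passed the filter. By edgeR, 0 of the 22 were called, as were 0 of the 30255 transcripts tested. At an unadjusted p under 0.05, 2 of the 22 were higher in OE, ENST00000461478.1 of *RBM14* and ENST00000501122.2 of *NEAT1*, where 6.98% of all tested transcripts were. At the same limit 1 was lower, ENST00000460762.1 of *RBM14*, where 7.58% of all were. Both *RBM14* transcripts passed the filter only through the group in which they had counts, so these tallies are no support for a difference in them. DESeq2 called 3 of the 22, the same transcripts, 2 as higher and 1 as lower, where it called 4.41% of all tested transcripts higher and 4.71% lower. The same limit holds for its calls of the *RBM14* transcripts.

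Levels can be compared between genes only per base of transcript, and they depend on the transcript to which the reads were assigned. In CPM per kb, summed over the transcripts of a gene, *MALAT1* stood at 260 and 200 with the empty vector, against 218 and 201 in OE. *SFPQ* stood at 125, 119, 106 and 121, and *NONO* at 77.6, 90.9, 76.1 and 73.4, each in the order vector control 1 and 2 and OE 1 and 2. *NEAT1* stood at 102 and 97.6 in the vector control and at 179 and 152 in OE. This divides its counts by the length of the long transcript, so reads of the short isoform would raise the level, and no order of *NEAT1* and *SFPQ* was drawn from it. *RBM14*, at 27.5, 28.7, 13.6 and 20.7, was above *PSPC1*, at 14.7, 20.1, 15.8 and 14.1, in 3 of the 4 libraries, and the ranges of these genes overlapped. The *MALAT1* level rests mostly on the 2505 bases of ENST00000544868.1. It would be lower over the 10434 bases of ENST00000534336.1, so its place among these genes is uncertain. Both lengths came from other versions of the transcripts than those counted. The same holds for the leading *RBM14*, *NONO*, *SFPQ* and *PSPC1* transcripts, so their levels share this limit, while the length of the long *NEAT1* transcript came from the same version. *RBM4* was left out because only 60.2% of its counts lay on transcripts with a known length.

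The genes most like *RBM14* and *NEAT1* over the 4 libraries were found by the distance between centred log2 CPM values, among 11457 genes that averaged 10 CPM or more. Nearest to *RBM14* was *EHD1* (distance 0.0375), with 2886 and 3078 counts with the empty vector, against 821 and 2527 in OE, followed by *DSTNP2* (0.204) and *RMND5B* (0.205). Each had its lowest level in OE library 1, as *RBM14* did. Nearest to *NEAT1* was *SNHG15* (distance 0.0403), with 527 and 524 counts with the empty vector, against 1009 and 981 in OE, followed by *PKD1* (0.0537) and *RP11-601I15.1* (0.0619). With 4 libraries, such a likeness is a description only.

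Of 39 other genes whose proteins are found in paraspeckles, 36 were tested, while *CELF6*, *DLX3* and *RBM12* had 0 counts in each library. At an unadjusted p under 0.05, 3 were higher in OE, namely *HNRNPK* (log2 fold change 0.38), *NUDT21* (0.16) and *BCL11A* (0.92). At the same limit 5 were lower, namely *MATR3* (-0.81), *CIRBP* (-0.57), *HNRNPA1* (-0.54), *HNRNPA1L2* (-0.42) and *FIGN* (-0.32). These counts are near the background of 10.1% higher and 10.7% lower over all genes. *HNRNPA1* and *HNRNPA1L2* are near-identical copies whose reads the counting may have split. By edgeR 0 of the 36 were called, and DESeq2 called 2, *HNRNPA1* and *MATR3*, as lower, where it called 4.42% of all genes lower and 4.35% higher. The groups did not overlap for 10 genes that were above and 11 that were below the vector control, near the 27.8% and 27.6% of all genes, and the median log2 fold change was -0.03.

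*MATR3*, a nuclear matrix protein that binds RNA, had 5452 and 5973 counts with the empty vector, against 3771 and 3727 in OE, with a log2 fold change at -0.81 (SE 0.110, adjusted p = 0.0808 by edgeR). ENST00000394800.2 led with the empty vector, at 2895 and 4533 counts, and held 8 and 0 in OE. The leading transcript also differed between the OE libraries, with 3472 and 0 counts on ENST00000509990.1 and 14 and 2206 on ENST00000503811.1. The part of this exchange in the difference of *MATR3* was not tested. *CIRBP*, a cold-inducible RNA-binding protein, had 1382 and 1482 counts with the empty vector, against 862 and 1385 in OE (SE 0.197, adjusted p = 0.234 by edgeR). Scaled to library size these were 59.4 and 63.1 CPM against 34.4 and 47.9 CPM. Here ENST00000588030.1, with 1263 and 1350 counts in the vector control, had 3 and 0 in OE, where ENST00000591097.1 held 740 and 1247 counts after 0 and 0 in the vector control. *HNRNPA1*, an RNA-binding protein that regulates splicing, had 5080 and 4131 counts with the empty vector, against 3265 and 4070 in OE (SE 0.136, adjusted p = 0.160 by edgeR), and nearly all of them lay on 1 transcript. *RBM4B*, the close relative of *RBM4*, had 568, 525, 570 and 658 counts and a log2 fold change of -0.04 (adjusted p = 0.871 by edgeR), and its gene overlaps that of *RBM4* on the opposite strand over 3377 bases.

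Of 18 nuclear speckle genes, 17 were tested and *DDX39B* had 0 counts in each library. At an unadjusted p under 0.05, 0 were higher in OE, where 10.1% of all genes were. At the same limit 2 were lower, the splicing factors *SRSF1* and *SRSF3* (log2 fold change -0.41, adjusted p = 0.112 by edgeR), where 10.7% of all genes were. By edgeR 0 of the 17 were called, and DESeq2 called 1, *SRSF1*, as lower, where it called 4.42% of all genes lower. *SRSF1* had 8363 and 8609 counts with the empty vector, against 1291 and 1212 in OE, that is 359 and 366 CPM against 51.4 and 41.9 CPM. The groups were far apart, and the log2 fold change was -2.96 (SE 0.133, adjusted p = 0.0283 by edgeR). In this gene too the counts lay on different transcripts. ENST00000582730.2 held 8361 and 8607 counts with the empty vector, against 0 and 1202 in OE, and ENST00000578430.1 held 2 and 2 with the empty vector, against 1291 and 10 in OE. The median log2 fold change of the 17 genes was -0.06, with 2 genes above the vector control in both OE libraries, 8 below and 7 that overlapped, where 27.8% of all genes were above and 27.6% below.

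**Figure D4:**
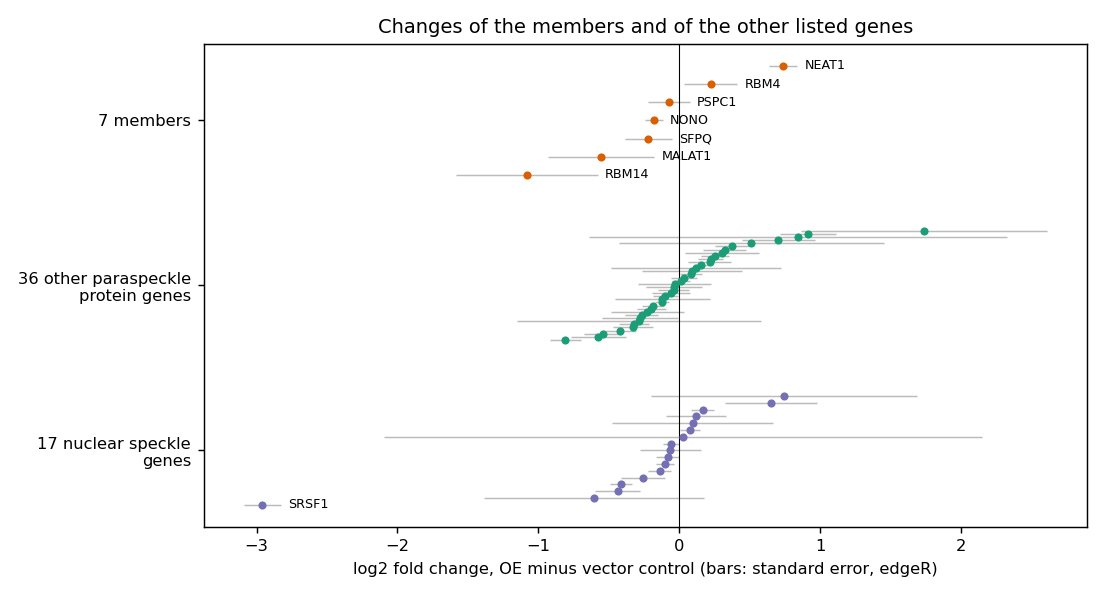
Log2 fold change (OE minus vector control, edgeR) of 7 tested genes of the described set (members), of 36 genes of other paraspeckle proteins and of 17 nuclear speckle genes, with bars for the standard error. *SRSF1* at -2.96 lies far below the rest of its list, whose median is -0.06, and the median of the other paraspeckle proteins is -0.03.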

How the data were processed

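Per the methods, FastQC served for read quality, Trimmomatic for trimming and Bowtie2 for mapping to hg19. The authors deposited raw counts for each transcript, as whole numbers without normalization. The study tested differential expression with DESeq2. The submitters' processing notes also name Bowtie2 2.0.4, Picard 2.21.6 and StringTie 2.1.6, without roles. The counting step, annotation release and use of strand are not given in the sources used here.

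Counts were summed per gene, filtered with filterByExpr, TMM-normalized and tested with edgeR 4.0.16 (quasi-likelihood, R 4.3.3, Benjamini-Hochberg over all features). Transcripts were fitted separately, so their CPM differ slightly from gene CPM. The code was tested on simulated data. With 2 libraries per group, an exact permutation test cannot go below p = 0.333, and none was run. Alternatives were DESeq2 1.42.0, limma-voom (limma 3.58.1), other normalizations and filters, a replicate block, leaving out each library and taking a gene's most abundant transcript alone. Intervals and the limit of 3 counts cover counting error only, as the reads carry no molecular identifiers.

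The 8 genes and the lists (other paraspeckle proteins, nuclear speckle genes, markers) were chosen with earlier results of these data known. For 1 gene of the paraspeckle list, the result is not reported here, and the list's counts leave it out. In the lists, genes with an unadjusted p under 0.05 were named, with counts for the 4 with the largest change at a mean of at least 10 CPM and for *RBM4B*. Positions, lengths and junctions came from GENCODE lifted to GRCh37, in which 2 of the 31 transcripts with counts were not found. The overexpressed gene and its copy were aligned with Biopython 1.88. Figures were drawn with matplotlib 3.10.9.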

Additional observations from a re-analysis of the deposited data

How the results depend on the processing

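At the study's thresholds edgeR called 0 genes. DESeq2 called 1800, a filter of at least 1 count in total gave 9, and an adjusted p under 0.05 with the same fold gave 122. DESeq2 called 1 of the 7 described genes, 2 of the other paraspeckle proteins, 1 nuclear speckle gene and 3 transcripts of the described genes. *RP5-998N21.4* passed the threshold with DESeq2 and with at least 1 count in total, at a log2 fold change of 6.12 in both, while by edgeR its adjusted p was 0.193 with a replicate block and 0.0421 to 0.0487 without 1 library. With a gene's most abundant transcript alone, log2 fold changes turned to 0.40 for *PSPC1*, 2.29 for *NONO* and 0.054 for *MALAT1*. Leaving out 1 library in turn gave -0.97 to 0.016 for *MALAT1*, -0.20 to 0.054 for *PSPC1* and -0.0035 to 0.48 for *RBM4*, so their signs rest on single libraries. The cause was not tested. The replicate numbers are shared between groups as numbers only, and the deviations of same-numbered libraries had a correlation of -0.0216. With a replicate block, edgeR called 0 genes and the log2 fold change was 0.74 for *NEAT1* and -1.24 for *RBM14*, and no call among the described genes changed. Upper-quartile normalization moved the median of all genes to 0.0463. With 2 libraries per group, differences of the size seen in *RBM14* could not be told from the spread between OE libraries.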
